A study of Mus musculus with 191 samples.

Results

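The 44 genes described here are nuclear-encoded subunits of the mitochondrial respiratory chain. They were listed by symbol, and each was read from the probe set of highest mean among those that map to its symbol alone. Of these genes, 42 had such a probe set and all 42 were tested, among 13524 genes tested in all. They comprise 24 genes of complex I, 4 of complex II, 6 of complex III and 8 of complex IV. Ndufs6 and Cox7b had no probe set of their own by this rule, so they have no expression values here and appear only among the promoters.

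The samples were lungs of female B6C3F1 mice, a C57BL/6 by C3H hybrid, labelled as 18 weeks old, measured on Affymetrix Mouse430_2 arrays. Exposure lasted 13 weeks to 1 of 26 chemicals or to a vehicle, and the series title gives its aim as transcript markers of chemically induced lung tumours. There were 133 exposed arrays in 34 groups and 58 control arrays in 14 sets, with 3 to 5 arrays a group, in 4 array batches named in the titles. Animal numbers, where labelled, did not repeat within a group.

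By inhalation for 6 hours a day, in air, mice received methylene chloride (MECL) at 100, 500, 2000, 3000 or 4000 ppm and naphthalene (NPTH) at 0.5, 3, 10, 20 or 30 ppm. Other air exposures were ethylene oxide (ETOX, 100 ppm), propylene glycol mono-t-butyl ether (PGBE, 1200 ppm), vanadium pentoxide (VANP, 2 mg/m3), tetrafluoroethylene (TFEL, 1250 ppm) and a compound labelled Tetrafluororethane (TFEA, 50000 ppm). By gavage in corn oil they received 2,3-benzofuran (BFUR, 240 mg/kg), iodoform (IODO, 93 mg/kg), trichlorofluoromethane (TCFM, 3925 mg/kg), 1,2,3-trichloropropane (TCPN, 60 mg/kg), 1,4-dichlorobenzene (DCBZ, 600 mg/kg), benzene (BENZ, 100 mg/kg), coumarin (COUM, 200 mg/kg) or 1,2-dibromoethane (DBET, 62 mg/kg). By gavage in distilled water they received 2-chloromethylpyridine hydrochloride (CMPH, 250 mg/kg) or N-methylolacrylamide (MACR, 50 mg/kg). In chow they received 1-amino-2,4-dibromoanthraquinone (ABDQ, 20000 ppm), 2,2-bis(bromomethyl)-1,3-propanediol (BBMP, 1250 ppm), tris(2,3-dibromopropyl)phosphate (TDPP, 1000 ppm), 4-nitroanthranilic acid (NAAC, 10000 ppm) or diazinon (DIAZ, 200 ppm). The remaining diets held 1,5-naphthalenediamine (NAPD, 2000 ppm), N-(1-naphthyl)ethylenediamine dihydrochloride (NEDD, 2000 ppm), pentachloronitrobenzene (PCNB, 8187 ppm) or malathion (MALA, 14800 ppm in the protocol and 16000 in the titles). The control sets were air (ACO1, ACO3, ACO4, ACO5), corn oil (CCO2 to CCO6 and CornOil), distilled water (WCO1) and chow (FCO1, FCO2 and RodentChow). The labels do not name the control set of a chemical, so an exposed group was compared with each set that shared its vehicle and array batch. The dose unit gives a partial hint: ACO3 is labelled in mg/m3, as is VANP alone among the exposures, and the other air sets in ppm. ACO3 was still used for every air exposure of its batch. Lung identity was plain in the controls, with surfactant gene Sftpc at 6.89, the club cell gene Scgb1a1 at 6.82 and the alveolar type 1 gene Ager at 6.65 on the deposited log scale, whose median over all values was -0.39.

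The respiratory chain passes electrons from NADH through complex I, or from succinate through complex II, to ubiquinone, complex III, cytochrome c and complex IV, where oxygen is reduced. Complexes I, III and IV pump protons as they do so, and ATP synthase uses the gradient. Complex II is encoded wholly in the nucleus, whereas the other complexes join nuclear subunits to a few made inside the mitochondrion, so the nuclear genes are usually regulated as a group, in part through the factors NRF1, GABP (an ETS factor) and YY1. In lung these genes are active in epithelium, endothelium, muscle of the vessel walls and immune cells alike.

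Promoters are shown because the members tended to move together and because shared motifs are known for this gene group. RefSeq promoters of the GRCm38.p6 build, covering 250 bases before and 50 after each start, were matched for 34 of the 44 genes. The stretches below are the 120 bases before the start, read 5′ to 3′ on the gene's strand. Capitals mark the NRF1 core GCATGCGC in the first 3, from Sdhb (chr4:140961151-140961270, plus strand), Ndufa6 (chr15:82354292-82354411, minus strand) and Ndufa8 (chr2:36049339-36049458, minus strand). They mark the ETS letters CCGGAAG, or the same on the other strand, in Ndufs3 (chr2:90904722-90904841, minus strand) and Sdhd (chr9:50603850-50603969, minus strand).
Sdhb: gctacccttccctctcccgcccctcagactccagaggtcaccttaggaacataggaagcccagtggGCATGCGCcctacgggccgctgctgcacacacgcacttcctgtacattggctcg
Ndufa6: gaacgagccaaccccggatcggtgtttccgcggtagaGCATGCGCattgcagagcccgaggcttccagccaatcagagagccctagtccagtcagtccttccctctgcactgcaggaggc
Ndufa8: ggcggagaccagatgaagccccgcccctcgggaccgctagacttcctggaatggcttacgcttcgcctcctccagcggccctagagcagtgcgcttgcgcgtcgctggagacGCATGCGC
Ndufs3: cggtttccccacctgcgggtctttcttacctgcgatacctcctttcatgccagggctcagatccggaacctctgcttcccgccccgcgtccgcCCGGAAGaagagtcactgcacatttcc
Sdhd: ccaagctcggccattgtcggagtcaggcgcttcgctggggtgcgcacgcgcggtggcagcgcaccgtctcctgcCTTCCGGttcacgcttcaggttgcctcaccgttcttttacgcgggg

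Each motif was searched on both strands. In the 250 bases before the start, the NRF1 core was present in 4 of the 34 matched members (Ndufa6, Ndufa8, Sdhb and Cox6a1), or 11.8%, against 2.56% of 27025 promoters in the table. The ETS letters were present there in 5 members (Ndufb7, Ndufs3, Sdhd, Cox6a1 and Cox6b1), or 14.7% against 7.83%. The YY1 letters AAGATGGC were in none of the matched members before the start, against 1.83% of all promoters, and in 6 members within the 50 bases after it (Ndufa9, Ndufb8, Ndufc1, Ndufs4, Ndufs6 and Ndufs7), or 17.6% against 1.35%. CCAAT was in 32.4% of members and 37.5% of promoters before the start, and the GC box GGGCGG in 32.4% and 35.4%. The TATA letters TATAAA were in 8.82% of members and 14.3% of promoters. These are matches of letters, not measured binding.

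In control lungs the members were among the brighter probe sets: 37 of 42 lay at or above the 90th percentile of level among tested genes. Ndufs1, the largest iron-sulfur subunit of complex I, was the dimmest at 1.63, the 77.0th percentile, and Uqcrb, a small subunit of complex III, was the brightest at 5.37. Levels of different genes come from different probes and are not otherwise compared. The spread of a member between arrays of 1 group, as a median SD over members, was 0.207 log2 units as deposited, against 0.147 for all tested genes. After quantile normalization within each array batch both medians were 0.118. Values are as deposited unless quantile normalization is named, and member counts are given under both.

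A gene was called higher or lower where limma's moderated test gave an adjusted p under 0.05, over all 13524 genes, against each of those control sets and with 1 sign throughout. Fold changes are log2 differences from the equal-weight mean of those sets, and the adjusted p printed is the largest over the sets. Where 1 array was left out, members were counted without a share of all genes beside them. Over the 1428 combinations of 42 genes and 34 exposures, 7 were higher (0.490%) and 8 lower (0.560%), against 1.86% and 0.722% of all genes in the same exposures. After quantile normalization 34 were higher (2.38%) and 70 lower (4.90%), against 2.42% and 2.08%. The members' share of higher calls was thus below or near that of all genes, and their share of lower calls was near it as deposited and above it after quantile normalization. The 15 calls on deposited values fell in 4 exposures (TFEL, IODO, BBMP and ABDQ), 30 exposures had none, and 12 of the 15 were also called after quantile normalization, where 13 exposures had a call.

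**Figure D1:**
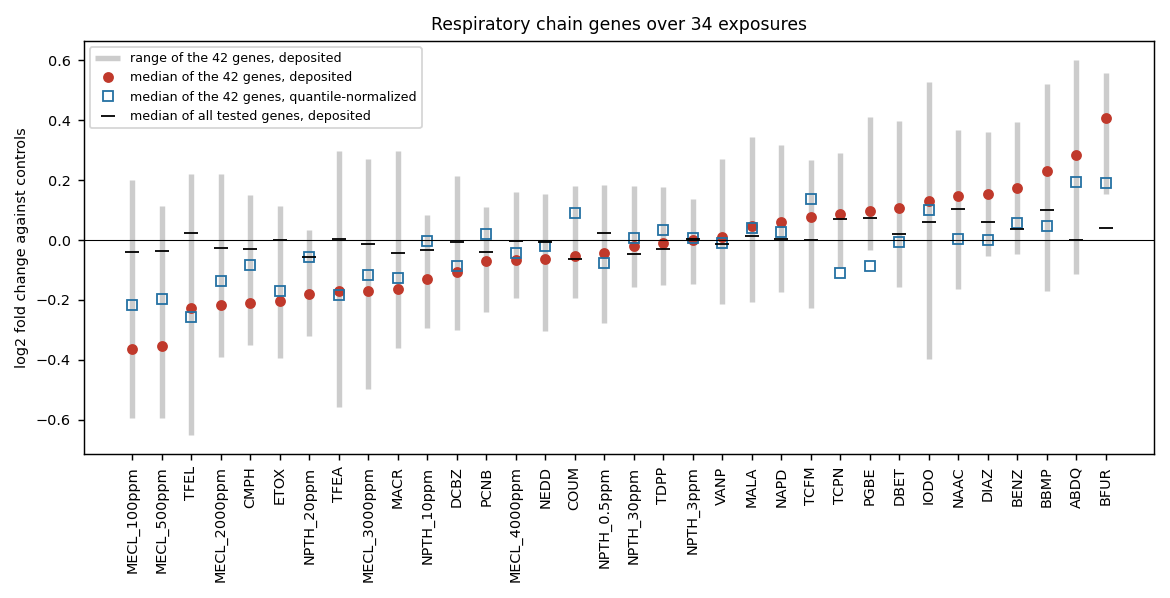
For each of the 34 exposures (horizontal axis), the red circle is the median log2 fold change of the 42 respiratory chain genes on deposited values, the grey bar their range, the open blue square the median after quantile normalization and the black dash the median of all 13524 genes. Member medians run from -0.36 in MECL_100ppm to 0.41 in BFUR, while quantile normalization brings BFUR to 0.19 and BBMP from 0.23 to 0.05.

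Many exposures with few or no calls still had a member median away from 0. The member median was lowest in methylene chloride at 100 ppm (-0.36, or -0.22 after quantile normalization) and 500 ppm (-0.35, or -0.20), and then in TFEL (-0.23, or -0.26). It was highest in BFUR (0.41, or 0.19), ABDQ (0.28, or 0.19) and BBMP (0.23, or 0.05). The medians of all tested genes in these 6 exposures lay between -0.04 and 0.10, but most of those genes were dimmer than the members. Cytosolic ribosome genes had medians of -0.28 at 100 ppm, -0.26 at 500 ppm and -0.30 in TFEL. Theirs were 0.24 in BFUR, 0.09 in ABDQ and -0.00086 in BBMP. The SD of values over an array averaged 1.19 at 100 and 500 ppm (controls 1.23). It averaged 1.28 in BFUR (controls 1.22) and TFEL (controls 1.23). The part of signal level or array spread in these medians was not tested. The sign of the member median was the same under both settings in 26 of the 34 exposures. In whole lung, less RNA per cell and fewer cells that carry it cannot be told apart.

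**Figure D2:**
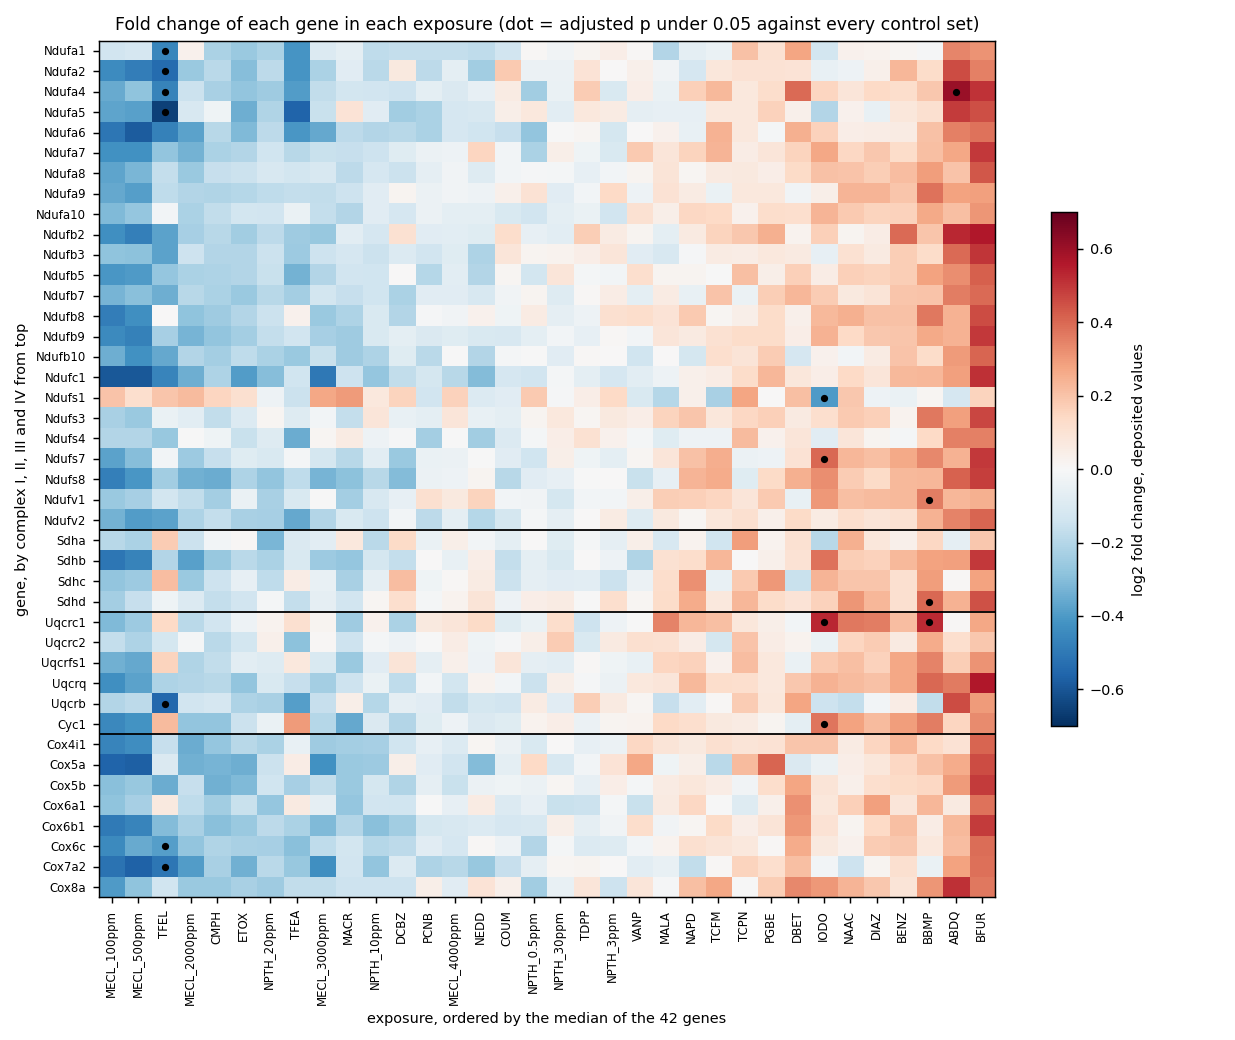
Each cell is the log2 fold change of 1 gene (rows, by complex I, II, III and IV from the top) in 1 exposure (columns, ordered by the member median) on deposited values, on a colour scale from blue (lower) to red (higher). Columns are mostly of 1 colour, with Ndufs1 as a row that departs from its neighbours, and the 15 dots mark called values.

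In TFEL the decrease was uneven along the chain. The 7 members that fell were Ndufa1, Ndufa2, Ndufa4 and Ndufa5, listed with complex I, Uqcrb of complex III, and Cox6c and Cox7a2 of complex IV. The 7 of 42 stand beside 1.48% of all tested genes lower in this exposure. After quantile normalization 22 members were lower, against 7.31% of all genes, and 1 was higher, Cox6a1 at 0.24, against 4.87%. The 4 genes of complex II had a median of 0.07 and none called, and complex III stood at 0.01, against -0.27 for complex I and -0.23 for complex IV.

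Ndufa5, an accessory subunit of the matrix arm of complex I, was at 1.45, 1.72, 1.96 and 1.80 in the TFEL arrays and at 2.36, 2.52, 2.46 and 2.19 in the ACO1 air controls. All TFEL arrays lay below all controls, and the fold change was -0.65 ± 0.16 (SE, limma adjusted p 0.00438). Uqcrb, which sits beside the ubiquinone site of complex III, was at 4.51, 4.84, 4.95 and 4.71 against 5.32, 5.29, 5.37 and 5.22 in ACO1. Again the groups did not overlap, with a fold change of -0.55 ± 0.14 (adjusted p 0.00588). The second probe set of Ndufa5 also fell, by 0.42 (adjusted p 0.00283 over 27904 probe sets). With it counted, 4 of the 44 other member probe sets tested were lower in TFEL, 1 was higher and 7 were above 0.

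Ndufa2, another matrix arm subunit, was at 2.66, 2.74, 2.93 and 2.94 in TFEL and at 3.08, 3.58, 3.34 and 3.43 in ACO1, a fold change of -0.54 ± 0.17 (adjusted p 0.0315). Ndufa1, a membrane subunit needed for complex I assembly, was at 3.41, 3.73, 3.86 and 3.59 against 4.16, 4.07, 4.14 and 4.05, a fold change of -0.46 ± 0.14 (adjusted p 0.0356). Neither gene's exposed arrays reached the controls. Ndufa4, long counted with complex I and later placed in complex IV, was at 3.47, 3.60, 3.66 and 3.63 against 3.94, 4.06, 4.16 and 4.06 (-0.47 ± 0.15, adjusted p 0.0433). Cox7a2, the form of complex IV subunit 7a made outside muscle, was at 4.21, 4.23, 4.28 and 4.46 against 4.57, 4.94, 4.86 and 4.85 (-0.51 ± 0.16, adjusted p 0.0387), and Cox6c, a small structural subunit, had a fold change of -0.39 ± 0.13 (adjusted p 0.0486). In all, 13 members had no overlap with the controls and lay below them, against 4.95% of all genes, and none lay wholly above.

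The catalytic and cofactor-bearing subunits (the Ndufs1, Ndufs3, Ndufs7, Ndufs8, Ndufv1 and Ndufv2 proteins of complex I, all of complex II, Uqcrfs1 and Cyc1) were split from the accessory subunits after the values had been seen. These 12 had a median of -0.03 in TFEL with none called, and the 30 accessory members a median of -0.29 with 7 called lower. After quantile normalization the median of the 12 was -0.09 with 1 lower. That of the 30 was then -0.32 with 21 lower and 1 higher. Cyc1, the haem protein of complex III, had the highest fold change of any member at 0.22 (adjusted p 0.412), and Ndufs1 was at 0.19. The core median was also the higher in TFEA (-0.10 against -0.24), BBMP (0.32 against 0.20) and IODO (0.21 against 0.08). So it was in methylene chloride at 100 ppm (-0.30 against -0.38) and 500 ppm (-0.28 against -0.38). It was the lower in ABDQ (0.24 against 0.29) and BFUR (0.37 against 0.41). The difference between the classes was not tested.

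Only the calls of Ndufa5 and Uqcrb in TFEL held whichever of the 8 arrays was left out, with adjusted p up to 0.0413 for Ndufa5 and 0.0425 for Uqcrb. The other 5 were each lost at least once. The count of calls was 2 without TFEL replicate 1, 2 or 3 and without ACO1 replicate 3 or 4, 3 without ACO1 replicate 2, and 5 or 6 without the others. RNA quality moved with this comparison: the difference between the 3′ and 5′ beta-actin control probe sets, which grows as RNA breaks down, was 0.19 to 0.26 in TFEL and 0.49 to 0.81 in ACO1. RNA integrity numbers were labelled for all of these arrays but TFEL replicate 3, and every TFEL number was above every ACO1 number. The part of RNA quality in the result was not tested. Of 10 cardiac muscle markers none was called, with a median of -0.27 and their mean level at 0.69 to 1.24 in TFEL and 0.90 to 1.52 in ACO1. Of 8 endothelial markers 2 were higher, with a median of 0.29, as were 1 of 7 alveolar type 2 and 1 of 6 T and NK cell markers. The part of cell makeup was not tested either.

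TFEA shares its 4 control arrays with TFEL, and its dose was 50000 ppm against 1250 ppm, so their values are only set side by side. No member was called in TFEA, where 0.0370% of all genes were lower, and 12 of 42 had an unadjusted p under 0.05, as did 12.0% of all genes. After quantile normalization 12 members were lower, against 2.78% of all genes, and 1 was higher, against 1.83%. Ndufa5 was at 1.76, 1.54, 1.49 and 2.51 in TFEA, and Uqcrb at 4.75, 4.77, 4.69 and 5.46. In both genes 3 arrays lay below every ACO1 array and replicate 4 lay among or above them. The same array stood high for Ndufa1, at 4.32 against 3.21 to 3.70 in the other TFEA arrays. Without it 9 members were called, with no share of all genes counted, and the median moved from -0.17 to -0.28. The beta-actin difference of replicate 4 was 0.753, against 0.279 to 0.442 in the others. Its RNA integrity number was the lowest of the TFEA arrays.

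**Figure D3:**
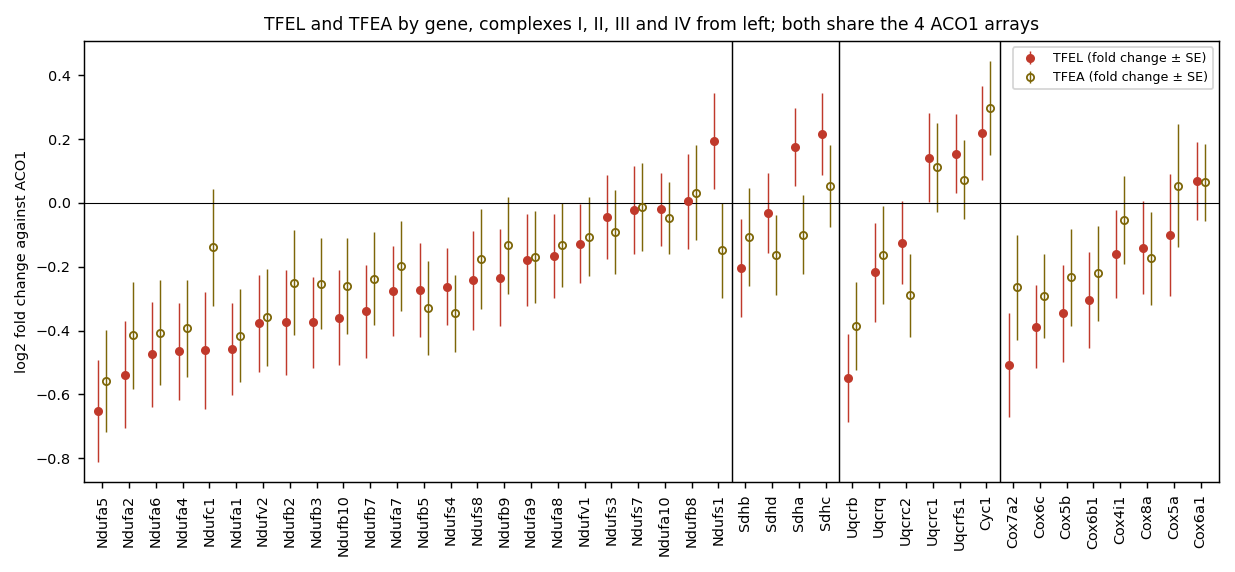
Log2 fold change of each of the 42 genes against the ACO1 air controls on deposited values, with TFEL as filled red circles and TFEA as open circles, bars giving ± SE and genes grouped by complex I, II, III and IV from the left. In TFEL the values run from -0.65 for Ndufa5 to 0.22 for Cyc1, and in TFEA, which uses the same 4 control arrays, from -0.56 for Ndufa5 to 0.30 for Cyc1.

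Methylene chloride gave the lowest member medians of the series at its lowest concentrations. At 100 ppm 41 of 42 members were below 0, and none was called on deposited values, where 0.133% of all genes were lower. The lowest was Ndufc1, a small membrane arm subunit of complex I, at -0.59 ± 0.14 (adjusted p 0.0546), and the highest was Ndufs1 at 0.20 ± 0.11 (adjusted p 0.463). At 500 ppm the lowest was again Ndufc1 (-0.59 ± 0.15, adjusted p 0.0906) and the highest Ndufs1 (0.12 ± 0.12), with no member and 0.00% of all genes called lower. At an unadjusted p under 0.05 against the mean of the sets, 39 members passed at 100 ppm and 38 at 500 ppm, as did 37.8% and 33.0% of all genes. After quantile normalization 15 members fell at 100 ppm, against 4.02% of all genes, and 9 at 500 ppm, against 2.54%. With the 14 air arrays joined as 1 control group in place of 3 sets, 33 members were lower at 100 ppm and 25 at 500 ppm on deposited values, against 15.7% and 9.78% of all genes. Leaving out 1 control array gave up to 3 calls at 100 ppm, with 2 without ACO3 replicate 2, 2 without ACO5 replicate 1 and 3 without ACO5 replicate 3.

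Cox7a2 was at 4.20, 4.14, 4.18 and 4.19 in the 500 ppm arrays. The air controls were at 4.69, 4.62, 4.85 and 4.68 in ACO3, at 4.34, 4.37, 4.82, 5.79 and 4.56 in ACO4 and at 4.58, 4.79, 5.06, 4.66 and 4.66 in ACO5. Every exposed array was below every control array, and the fold change was -0.57 ± 0.13 (adjusted p 0.0865). The same separation held for 14 members at 500 ppm, against 3.70% of all genes below their controls, and for 8 members at 100 ppm, against 3.05%. The mean of the 42 members was 2.92 to 3.11 in the arrays at 100 ppm and 2.95 to 3.04 at 500 ppm, against 3.27 to 3.47 in ACO3, 3.04 to 3.89 in ACO4 and 3.23 to 3.48 in ACO5.

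Among the exposed arrays the members rose with concentration. Over the 21 methylene chloride arrays, 38 of 42 members rose from 100 to 4000 ppm in a linear fit and none fell, against 27.2% and 15.1% of all genes that rose and fell, with a member median of 0.32 log2 units over that range. After quantile normalization 32 rose and 2 fell (Ndufa1 and Uqcrb), with a median of 0.18, against 22.4% and 17.7%. The 3 highest were Sdhb, the iron-sulfur subunit of complex II (0.41 ± 0.09, adjusted p 0.00101), Ndufb8, a membrane arm subunit of complex I (0.41 ± 0.08, adjusted p 0.000779), and Cyc1 (0.40 ± 0.09, adjusted p 0.00176). The 3 lowest of those called were Ndufb3 (0.21), Ndufa10 (0.22) and Cox6a1 (0.23). The 4 not called were Ndufa1 (-0.0071), Uqcrb (0.035), Ndufs1 (0.038) and Cox5b (0.14). Cox5b has 6 probe sets of its symbol alone, and of the 4 others that were tested 2 rose. The count stayed between 37 and 39 with any 1 of the 21 arrays left out. Some cell markers also had a trend on deposited values, where 27.2% of all genes rose and 15.1% fell. Of 8 endothelial markers 3 rose with all 8 above 0 (median 0.16), and 2 of 7 alveolar type 2 markers rose (median 0.18). Of 8 ciliated cell markers 2 rose and 1 fell. At most 1 marker of a list rose and at most 1 fell among the club cell, alveolar type 1, macrophage, T and NK cell and skeletal muscle markers. The mean endothelial marker level was 3.14 to 3.36 at 100 ppm and 3.37 to 3.64 at 4000 ppm. The 10 cardiac markers had a median of 0.28 with none called. After quantile normalization the endothelial median was -0.0082 with 2 markers rising. The alveolar type 2 median was then 0.023 with 1 rising, and the cardiac median 0.17 with none called. The part of cell makeup in the trend was not tested.

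The rise ended near the level of the air controls, not above it. Sdhb had medians of 3.25 at 100 ppm, 3.25 at 500 ppm, 3.33 at 2000 ppm, 3.47 at 3000 ppm and 3.71 at 4000 ppm, with 3.81, 3.65 and 3.68 in ACO3, ACO4 and ACO5. The arrays at 100 ppm, 3.12 to 3.40, lay below every air control, those at 500 ppm, 3.20 to 3.43, just reached the lowest ACO4 array (3.42), and those at 4000 ppm, 3.39 to 3.94, overlapped all sets. The member median against the controls was -0.36, -0.35, -0.22, -0.17 and -0.07 from the lowest to the highest concentration. With the air arrays added at 0 ppm no member had a linear trend, and Sdhb was then at -0.014 over the range. The beta-actin difference was 0.54 to 0.79 at 100 ppm, 0.42 to 0.50 at 500 ppm, 0.45 to 0.59 at 4000 ppm and 0.54 to 0.98 over the 3 control sets, and its part was not tested.

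**Figure D4:**
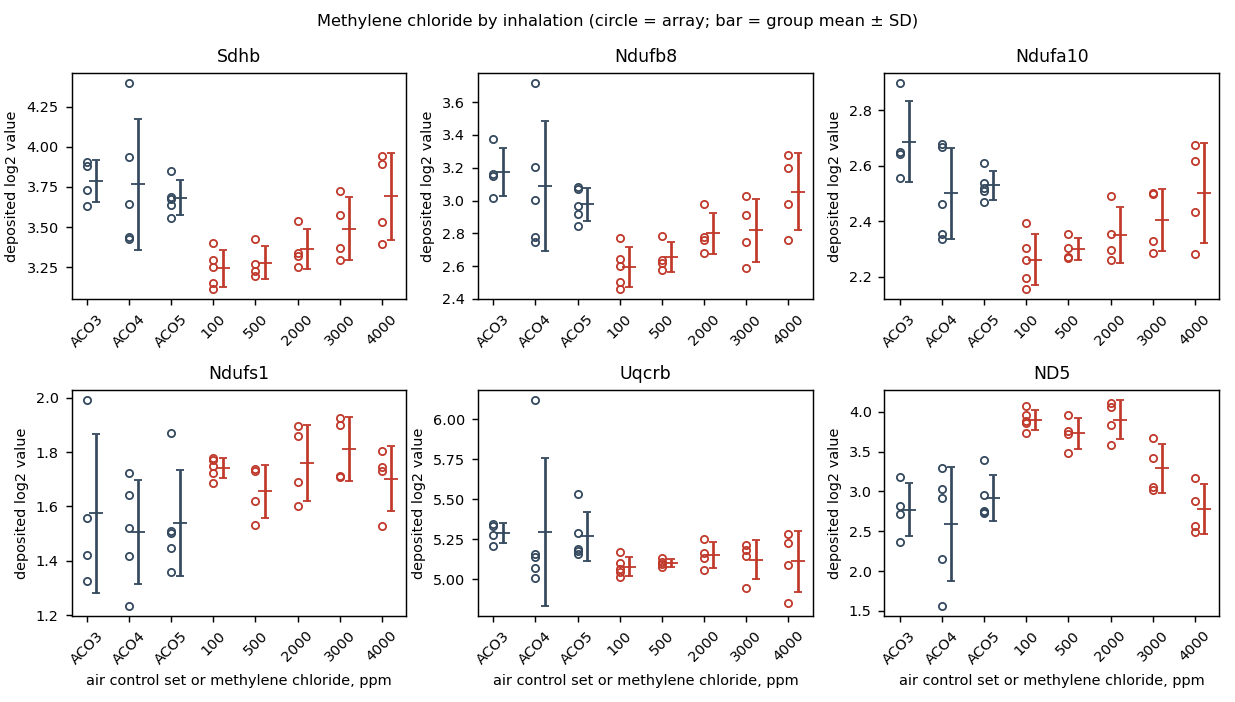
Deposited log2 values in each array (circles) with the group mean and SD (bars) for Sdhb, Ndufb8, Ndufa10, Ndufs1 and Uqcrb, and for the mitochondrially encoded ND5, in the air control sets ACO3, ACO4 and ACO5 (blue-grey) and at 100 to 4000 ppm methylene chloride (red). Sdhb, Ndufb8 and Ndufa10 are lowest at 100 and 500 ppm, Uqcrb is nearly flat, and ND5 runs the other way, from medians of 3.89 at 100 ppm to 2.73 at 4000 ppm.

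The mitochondrially encoded partner measured on the arrays moved in the opposite sense. ND5, a proton-pumping subunit of complex I and the 1 measured of 13 mitochondrially encoded genes, was chosen for this comparison after its values had been seen. It was at 3.73 to 4.07 at 100 ppm (median 3.89) and at 1.57 to 3.40 over the 14 air arrays, a fold change of 1.14 ± 0.25 that missed the threshold (adjusted p 0.0558). After quantile normalization ND5 was higher at 100 ppm (1.30, adjusted p 0.0124) and at 2000 ppm (1.22, adjusted p 0.0405). The exposed arrays at 100 ppm lay above all controls. Across the exposed arrays it fell by 0.98 ± 0.16 from 100 to 4000 ppm (adjusted p 0.000203), and with the air arrays at 0 ppm the trend was 0.016. ND5 rose in MACR (1.15, adjusted p 0.0338) and TCPN (1.26, adjusted p 0.0235; 1.02 and 0.151 after quantile normalization) and fell in IODO (-1.07, adjusted p 0.0161), and stood at 0.91 in TFEL (adjusted p 0.0744). A transcript of the mitochondrial genome is read here from a single probe set.

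Other gene groups of the mitochondrion rose along the methylene chloride series too. Of 14 further respiratory chain subunits 10 rose, led by Ndufa13 (0.40), and of 17 ATP synthase genes 14 rose, led by Atp5g1 and Atp5o (0.40 each). Of 76 mitochondrial ribosome genes 51 rose and 3 fell, with a median of 0.21, and of 29 assembly factors 12 rose, led by Surf1 (0.41), which helps to build complex IV. Cytosolic ribosome genes, which are not mitochondrial, rose in 25 of 47 cases, with a median of 0.17. Of 12 citric acid cycle genes 8 rose and Dld, a shared dehydrogenase subunit, fell by 0.41. Of 12 regulators of mitochondrial biogenesis 5 rose, and Gabpa, the DNA-binding subunit of GABP, fell by 0.30. These list counts were smaller after quantile normalization, except for assembly factors (13 rose and 2 fell). Of the further subunits 7 then rose and 1 fell, of ATP synthase genes 9 and 1, of mitochondrial ribosome genes 41 and 4 (median 0.12), and of cytosolic ribosome genes 12 and 4 (median 0.053).

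BFUR gave the highest member median, resting largely on 1 of its 3 arrays. All 42 members were above 0, none was called as deposited, where 1.66% of all genes were higher, and 31 had an unadjusted p under 0.05, as did 14.9% of all genes. The highest was Ndufb2, a membrane arm subunit of complex I, at 0.56 ± 0.19 (adjusted p 0.101), and the lowest Ndufs1 at 0.16 ± 0.17 (adjusted p 0.786). After quantile normalization Ndufs3 and Sdhd were higher (0.28 each), against 1.88% of all genes. Ndufs7, which holds the last iron-sulfur cluster before ubiquinone, was at 4.22, 3.53 and 3.62 in BFUR and at 3.30, 3.32 and 3.25 in its CornOil controls (0.50 ± 0.16, adjusted p 0.0761). Ndufb2 was at 3.81, 2.93 and 3.04 against 2.62, 2.65 and 2.83. The BFUR arrays of both genes lay above the controls, as they did for 23 members, against 13.1% of all genes.

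The mean of the 42 members was 4.23 in BFUR replicate 1 and 3.44 and 3.54 in the others. Without replicate 1 the median fell from 0.41 to 0.16, and without replicate 2 it was 0.58 with 22 members called. How many of all genes were called in that refit was not counted. The beta-actin difference was 0.945 in replicate 1 and 0.357 and 0.373 in the others, against 0.428 to 0.643 in the controls, and its part was not tested. Ciliated cell markers had a median of 0.47, with 1 of 8 called, and club cell markers a median of 0.24, with 1 of 6 called. Cardiac markers had a median of 0.25 with 0 of 10 called, and endothelial markers -0.16 with 0 of 8 called. After quantile normalization the ciliated median was 0.36 with 1 called and the club cell median 0.092 with 0 called. The endothelial median was then -0.32, and that of alveolar type 2 markers -0.12 with 1 of 7 lower. Their part was not tested. Among related lists, Uqcr10 of complex III was higher (0.60), as were 6 of 76 mitochondrial ribosome genes, led by Mrpl57 (0.56); after quantile normalization 5 were higher.

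In ABDQ, Ndufa4 was the 1 member that rose. It was at 4.16, 3.99, 4.17 and 4.38 in the exposed arrays and at 3.66, 3.58, 3.59 and 3.46 in the FCO1 controls, with no overlap (0.60 ± 0.15, adjusted p 0.0308), where 0.643% of all genes were higher. The call was lost without any of ABDQ replicates 1, 3 and 4 or FCO1 replicates 3 and 4, with adjusted p up to 0.23, while 2 members were called without ABDQ replicate 2 and 4 without FCO1 replicate 2. In total 12 members lay wholly above their controls, against 3.82% of all genes, and 40 were above 0. The lowest was Ndufs1 at -0.11 ± 0.15 (adjusted p 0.758). After quantile normalization 9 members were higher, against 3.97% of all genes, among them Ndufa4 (0.49), Uqcrb (0.45) and Ndufb2 (0.44). The beta-actin difference was 0.41 to 0.54 in ABDQ and 0.57 to 0.76 in FCO1, and its part was not tested. No cell type marker was called as deposited. Endothelial markers had a median of -0.27, B and plasma cell markers -0.25, macrophage markers 0.28 and adipose markers 0.31. After quantile normalization 3 of 8 endothelial and 1 of 7 alveolar type 2 markers were lower. Higher were 1 of 5 macrophage, 1 of 8 ciliated and 2 of 4 tested skeletal muscle markers, while 1 alveolar type 1 marker was higher and 1 lower. Their part was not tested. Uqcr10 (0.54), Atp5mpl of ATP synthase (0.49) and 3 mitochondrial ribosome genes were higher as well, while Gabpb1, the partner subunit of Gabpa, fell by 0.29. After quantile normalization 22 of 76 mitochondrial ribosome genes and 6 of 29 assembly factors were higher.

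In BBMP 3 members rose, 1 each in complexes I, II and III. Uqcrc1, a large matrix-facing subunit of complex III without a cofactor and counted as accessory above, rose by 0.52 ± 0.14 (adjusted p 0.0166), with arrays at 3.19, 3.04, 3.36 and 3.29 against 2.96, 2.59, 2.56 and 2.68 in FCO2. Sdhd, a membrane anchor of complex II, rose by 0.40 ± 0.13 (adjusted p 0.0304), and Ndufv1, the flavin subunit that accepts electrons from NADH, rose by 0.36 ± 0.12 (adjusted p 0.0442). Sdhd was at 2.68 to 3.13 in BBMP and 2.41 to 2.71 in FCO2, so those groups overlapped, whereas the groups for Uqcrc1 did not. Adjusted over 27904 probe sets, 2 of the 42 probe sets used were higher. Of the 44 other member probe sets tested, 38 were above 0 and none was called. The 3 of 42 stand beside 10.4% of all genes higher in this exposure, and 3 members lay wholly above the controls against 17.3% of all genes. The lowest member was Uqcrb at -0.17 ± 0.14 (adjusted p 0.399).

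None of the 3 calls held after quantile normalization, where 0.200% of all genes were higher and the 1 member called was Cox6a1 (0.24). The SD of values over an array averaged 1.33 in BBMP and 1.23 in FCO2. The count was 12 without BBMP replicate 2, 7 without FCO2 replicate 1, and 0 to 2 without any of the others. Shares of all genes were not counted in these refits. The beta-actin difference was 0.29 to 0.36 in BBMP and 0.46 to 0.62 in FCO2. Cardiac markers had a median of 0.45, with 0 of 10 called. Their mean level was 1.57 to 2.05 in BBMP and 0.67 to 2.83 in FCO2. B and plasma cell markers had a median of 0.53 with 5 of 5 above 0, and endothelial markers 0.25 with 8 of 8 above 0, none called. Club cell markers had a median of -0.26 with 1 of 6 lower, and 1 of 6 T and NK cell markers was higher. After quantile normalization none of these markers was called. The cardiac, B and plasma, endothelial and club cell medians were then 0.30, 0.40, 0.074 and -0.071. The part of these values in the result was not tested. Of 76 mitochondrial ribosome genes 13 rose, led by Mrpl11 (0.43), and of 29 assembly factors 4 rose, led by Ndufaf3 (0.42). After quantile normalization neither list had a call, and their medians moved from 0.22 to 0.040 and from 0.15 to 0.045.

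In IODO 3 members rose and 1 fell. Uqcrc1 was at 3.35, 4.09, 2.97 and 3.29 in the exposed arrays and at 2.66, 3.28, 2.49 and 3.16 in CCO4, a rise of 0.53 ± 0.14 (adjusted p 0.00795) between groups that overlap. Ndufs7 rose by 0.40 ± 0.14 (adjusted p 0.0258) and Cyc1 by 0.37 ± 0.15 (adjusted p 0.0478). Ndufs1 fell by 0.40 ± 0.15 (adjusted p 0.0393), at 1.34, 0.99, 1.61 and 1.55 against 1.88, 1.56, 1.95 and 1.69, so these groups overlap as well. These counts lie beside 15.6% of all genes higher and 11.9% lower. After quantile normalization 9 members rose and 2 fell, against 20.1% and 15.3%, with all 4 calls kept.

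The IODO calls depended on single arrays. Replicate 2 had the highest member mean of its group, 3.98 against 3.22 to 3.48, and without it no member was called and the member median moved from 0.13 to -0.05. No member was called without CCO4 replicate 1 or 3 either, and 2 without IODO replicate 1. There were 6 to 9 calls without CCO4 replicate 2 or 4 and IODO replicate 3 or 4, with no share of all genes counted. The beta-actin difference was 0.26 to 0.49 in IODO and 0.56 to 0.94 in CCO4, and its part was not tested. Cardiac markers had a median of 0.15 with 0 of 10 called, and 3 of 8 endothelial markers were higher. Of B and plasma cell markers 2 of 5 were higher (median 0.46), as were 1 of 2 erythroid and 1 of 6 T and NK cell markers. Club cell markers were lower in 2 of 6 cases, and 1 ciliated, 1 macrophage and 1 alveolar type 1 marker were lower. The part of cell makeup was not tested.

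**Figure D5:**
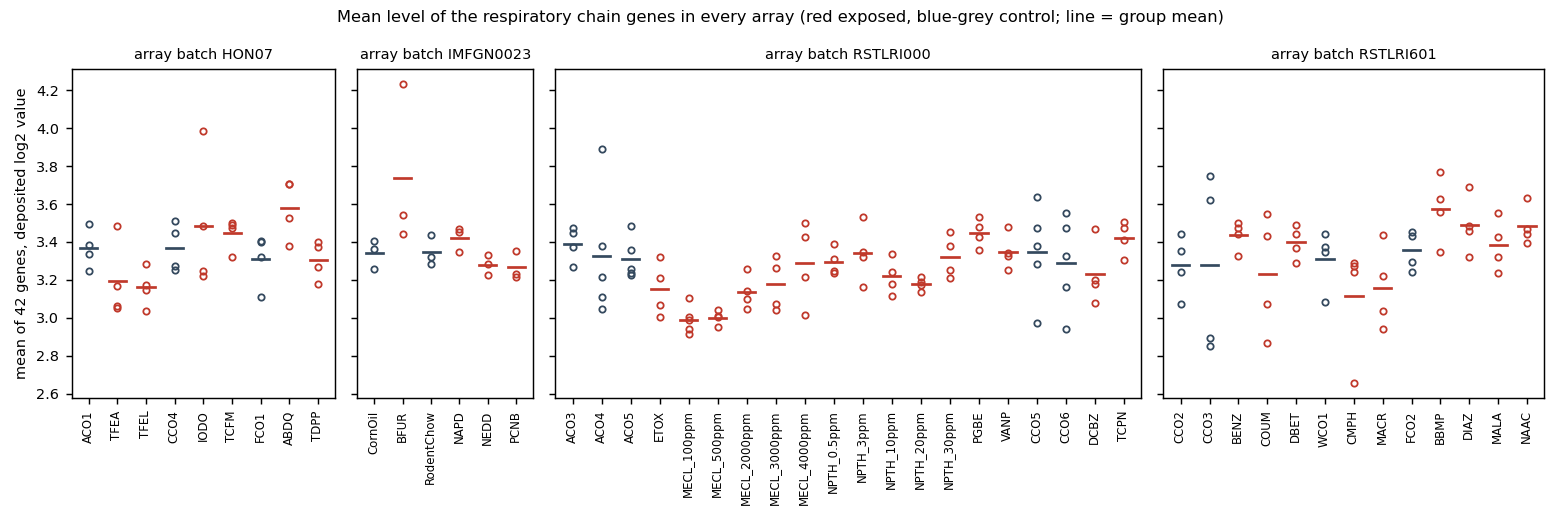
Mean deposited log2 value of the 42 genes in every array, with 1 panel per array batch, exposed groups in red, control sets in blue-grey and a line at each group mean. Exposed arrays span 2.66 to 4.23 and control arrays 2.85 to 3.89, so single arrays such as BFUR replicate 1 (4.23) stand further out than most groups.

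Other exposures had calls only after quantile normalization. In TCFM 9 members rose, against 7.59% of all genes, led by Ndufs7 (0.33), Cox8a (0.32), Ndufa6 (0.31) and Sdhb (0.29). In MACR 7 fell and 1 rose, against 14.2% of all genes lower, with Cyc1 at -0.32 and Uqcrb, the 1 that rose, at 0.21, where 11.0% of all genes rose. Methylene chloride at 3000 ppm had 2 members lower, Ndufc1 (-0.46) and Cox7a2 (-0.33), against 1.66% of all genes. In MALA Uqcrc1 rose (0.35), where 2.83% of all genes rose, and in VANP Cox6a1 fell (-0.26), where 2.67% fell, so 1 of 42 members is near the background in each. On deposited values these 5 exposures had no call, although MACR had 4 without WCO1 replicate 2.

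Along the naphthalene series few members had a trend. Over its 20 exposed arrays from 0.5 to 30 ppm, Ndufa7, an accessory subunit of complex I, rose by 0.19 (adjusted p 0.0271), and 5 members fell. These were Ndufa9 (-0.24, adjusted p 0.0371), Ndufs1 (-0.21, 0.00141), Uqcrb (-0.18, 0.04999), Ndufb8 (-0.18, 0.0498) and Cox6a1 (-0.17, 0.0304). With each of the 20 arrays left out in turn, the call of Ndufs1 always held. Those of Ndufb8, Uqcrb, Ndufa9, Cox6a1 and Ndufa7 were lost 16, 13, 9, 3 and 3 times. Among all genes 9.08% rose and 31.7% fell, and the member median was -0.02 against -0.07 for all genes. After quantile normalization 13 members rose and 2 fell, Uqcrb and Cox6a1, against 15.1% and 19.0%. The member median against the air controls lay between -0.18 at 20 ppm and 0.0017 at 3 ppm. The count of 6 fell to 2 without 0.5 ppm replicate 4, 3 ppm replicate 4 or 30 ppm replicate 4, and to 3 without 0.5 ppm replicate 2 or 3, 3 ppm replicate 1 or 20 ppm replicate 1 or 2, and it was 10 without 30 ppm replicate 2. Cell markers changed along this series: 7 of 7 alveolar type 2 markers rose (median 0.35) and 2 of 5 adipose markers rose (0.39), while 5 of 8 endothelial (-0.33), 5 of 6 T and NK cell (-0.38), 3 of 6 club cell and 2 of 2 erythroid markers (-0.57) fell. The mean endothelial marker level was 3.41 to 3.50 at 0.5 ppm and 2.81 to 3.29 at 30 ppm. Their part in the member trends was not tested. The naphthalene groups share the ACO3, ACO4 and ACO5 arrays with methylene chloride, ETOX, PGBE and VANP.

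NAPD and NEDD were fed at the same level, 2000 ppm, with 3 arrays each in 1 batch, and this was the 1 pair of related compounds compared. NAPD has both amino groups on the naphthalene ring, whereas NEDD carries its second amine at the end of a short chain on the ring nitrogen. No member differed between them, against 1.54% of all genes, and none had an unadjusted p under 0.05, or 3 after quantile normalization, as did 8.30% and 13.1% of all genes. Cox5a, a complex IV subunit, had the highest difference, 0.34 higher in NAPD with a 95% interval of -0.09 to 0.78 (adjusted p 0.798). The lowest was Ndufa7, at 0.0047 with an interval of -0.32 to 0.33. All 42 differences were above 0 with a median of 0.13, or 33 with a median of 0.057 after quantile normalization. Both intervals reach either side of 0.

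Isoforms made mainly in muscle or in particular cells were followed beside the general forms. Cox4i2, the lung-enriched form of subunit 4 that responds to oxygen, fell in COUM (-0.52, adjusted p 0.00367) and rose in IODO (0.32, adjusted p 0.0443). Ndufa4l2, a relative of Ndufa4 induced by low oxygen, rose in TFEL (0.52, adjusted p 0.0143, up to 0.0673 with 1 array left out), where Ndufa4 fell, and in IODO (0.37, adjusted p 0.0461). Cox7a1 and Cox8b, forms of heart and skeletal muscle, fell in VANP (-0.81, adjusted p 0.0372, and -1.03, adjusted p 0.00394). Cardiac muscle markers had a median of -0.70 in VANP, all 10 below 0 and 0 called, with a mean level of 0.36 to 0.77 against 0.49 to 3.03 over the air controls. Adipose markers had a median of -0.79, all 5 tested below 0 and 1 lower, with a mean level of -0.30 to -0.19 against -0.43 to 2.64. Endothelial markers had a median of -0.44 with 1 of 8 lower, and macrophage markers a median of 0.76 with 2 of 5 higher. Of alveolar type 2 markers 3 of 7 were higher, and 1 of 6 alveolar type 1 markers was lower. The part of these cell types was not tested. Cox6a2 ran from -0.51 in CMPH to 0.50 in VANP, and Cox6b2, the testis form, from -0.34 in CMPH to 0.28 in PGBE, with no call in any of the 34 exposures. Along the methylene chloride series Cox6a2 rose by 0.30 (adjusted p 0.00726, at most 0.0289 with 1 array left out) and Cox6b2 fell by 0.16 (adjusted p 0.0197, at most 0.0490). Ndufa4l2 rose there by 0.17 (adjusted p 0.0334, up to 0.0754 with 1 array left out). Of the 8 skeletal muscle markers, Myh1, Myh2, Tnnc2 and Tnnt3 were at -0.90 or below in the controls and were too dim to test.

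In TFEL other lists also fell in part. Cytochrome c (Cycs, -0.63) and Uqcrh of complex III (-0.54) were the 2 of 14 further subunits that fell, and Atp5mpl (-0.43) and Atp5md (-0.34) the 2 of 17 ATP synthase genes. Of 76 mitochondrial ribosome genes 6 fell, led by Mrpl52 (-0.55), and of 47 cytosolic ribosome genes 11 fell, led by Rpl22l1 (-0.66). Cox17, which carries copper to complex IV, fell (-0.47), as did the assembly factor Ndufaf2 (-0.44). None of 12 citric acid cycle genes was called. The list medians were -0.32 for the further subunits, -0.30 for the cytosolic ribosome, -0.28 for ATP synthase and -0.16 for the mitochondrial ribosome, beside -0.23 for the members. They were -0.061 for the citric acid cycle, -0.037 for assembly factors and 0.12 for biogenesis regulators, of which Gabpb1 rose (0.22). After quantile normalization 11 of the further subunits, 10 ATP synthase genes, 38 mitochondrial and 23 cytosolic ribosome genes, 7 assembly factors and 2 citric acid cycle genes were lower.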

How the data were processed

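Values are the log2-like numbers of the deposited series table, with 45101 probe sets on 133 exposed and 58 control arrays. Per the labels, RNA was extracted with Trizol and labelled by the standard Affymetrix protocol; the normalization and the log base are not given in the sources used here, and log2 is taken from the range of the deposited values (-2.33 to 8.14). Each array is labelled as a separate sample and most carry an animal number; where none is given, p-values measure only the spread between samples. Gene names came from the platform annotation: 34958 probe sets had 1 symbol, 932 several and 9211 none.

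A gene was tested where at least 3 arrays exceeded the median of all values. limma 3.58.1 in R 4.3.3 fitted group means over all arrays, with Benjamini-Hochberg adjustment over 13524 genes and a threshold of 0.05. Trends used exposed arrays and linear ppm. Scripts were tested on simulated data. Alternatives were quantile normalization within batch, no filter on low values, the mean of a gene's probe sets, arrays of the comparison alone, joined controls, arrays with RNA integrity number under 7 left out, log10 concentration, air controls at 0 ppm and each array left out.

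Members and lists were chosen with earlier results of these data known. The rule for names took called members in the 6 exposures of largest absolute member median and in both series (3 highest and 3 lowest where over 6), with the highest and lowest member where under 4 were called, and up to 4 called members elsewhere. Per-array values were taken for the 8 members called most often; TFEA, ND5, the core split and further per-array values were added after values had been seen. No 2 arrays of a group were identical over 290 pairs.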

Additional observations from a re-analysis of the deposited data

Results flagged for a closer look

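Among 122 sets of values in groups of 4 or 5 arrays, 6 held 1 array far from the rest, where chance alone gives about 1 in 20. The mean of the 42 respiratory chain genes was 2.66 in CMPH replicate 4, against 3.24 to 3.29 in the other CMPH arrays. It was 3.32 in TCFM replicate 4, against 3.47 to 3.50. After quantile normalization it was 3.58 in ACO4 replicate 4, an air control, against 3.19 to 3.28. TFEA replicate 4 stood above its group for Ndufa2 (3.45 against 2.74 to 2.79), Ndufa4 (4.13 against 3.49 to 3.53) and Uqcrb (5.46 against 4.69 to 4.77).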

How the results depend on the processing

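Call counts depended on the processing, and so did some medians. After quantile normalization the member median moved from 0.41 to 0.19 in BFUR and from 0.23 to 0.05 in BBMP. Quantile normalization gave 104 member calls over all exposures in place of 15: TFEL 23, MECL_100ppm 15, TFEA 13, IODO 11, ABDQ, MECL_500ppm and TCFM 9, MACR 8, BFUR and MECL_3000ppm 2, BBMP, MALA and VANP 1, and 15 for the naphthalene trend. Fitting only the arrays of a comparison gave 23 in all, with TFEL 12, BBMP 6, NAAC 3, MECL_100ppm 2, NAPD against NEDD 1, and ABDQ and IODO 0. Joining the control sets gave 89, with MECL_100ppm 33, MECL_500ppm 25, BBMP 5, MECL_2000ppm 4, ABDQ, DBET, MECL_3000ppm and PGBE 2, and NPTH_20ppm and TCPN 1. The mean of all probe sets gave ABDQ 2 and BBMP 1, no filter on low values gave IODO 2, and leaving out arrays of low RNA integrity gave BBMP 5. With air controls at 0 ppm the methylene chloride trend had 0 calls and the naphthalene trend 3, and Sdhb (-0.014), Ndufb3 (-0.024), Ndufa10 (-0.029) and ND5 (0.016) changed sign; log10 concentration gave 11 for naphthalene. Shares of all genes are not set beside the counts in this paragraph, so these describe the processing and not the members in particular. The cause was not tested.

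With 1 array left out, the total ran from 3 to 38, TFEL from 2 to 6, ABDQ from 0 to 4, BBMP from 0 to 12, BFUR from 0 to 22, IODO and TFEA from 0 to 9, MACR from 0 to 4, MECL_100ppm from 0 to 3, DBET and TCPN from 0 to 1, the naphthalene trend from 2 to 10 and the methylene chloride trend from 37 to 39. How many of all genes were called was not counted in these refits. Groups of 3 to 5 arrays limit the precision of every call. No paired analysis was possible because the replicate numbers only name arrays in accession order.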
